A study of Homo sapiens with 18 samples.

Results

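The genes described here write, maintain, erase or act beside repressive chromatin marks: DNMT1, UHRF1, DNMT3A, DNMT3B, TET1, TET3, EZH1, EZH2, EED and SUZ12. They were chosen by gene symbol, and each symbol matched 1 Ensembl identifier in the GENCODE annotation of GRCh38. This gave 10 of the 61541 genes listed in the count tables, and all 10 passed the filter on low counts in both tables, among 17377 and 17775 genes tested. The libraries were made from A549, an epithelial line from a human lung adenocarcinoma (a non-small cell lung cancer), of wild type genotype. Cells received sodium propionate (SP), the salt of a short-chain fatty acid that bacteria of the gut produce, or no treatment. Of the 18 RNA-seq libraries, 3 came from each of 6 groups: untreated cells at 24 h, 5 mM SP for 3 h and for 24 h, untreated cells at 3 days, and 5 mM SP for 3 days and for 12 days. The first 3 groups stood in one count table and the last 3 in another. The short treatments (3 h and 24 h) were compared with the 24 h control, and the long ones (3 and 12 days) with the 3 days control. No untreated library at 3 h or at 12 days was analysed here, so in those comparisons SP and the time in culture cannot be told apart. Since each control served 2 comparisons, the results for those 2 are not separate evidence.

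DNA methylation in mammals falls mostly on cytosines that precede a guanine (CpG). DNMT1 copies it to the new strand after replication, UHRF1 binds the half-methylated sites and brings DNMT1 to them, and DNMT3A and DNMT3B methylate new sites. TET enzymes oxidise methylated cytosine, the first step of its removal. Polycomb repressive complex 2 (PRC2) methylates lysine 27 of histone H3 through EZH2 or EZH1, its alternative catalytic subunits, and needs EED and SUZ12 for stability and activity. DNMT1, UHRF1 and EZH2 are known as genes of dividing cells, and EZH1 as the catalytic subunit of resting ones. Propionate is known as a weak inhibitor of histone deacetylases, whose products also shape silent chromatin.

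Library totals ranged from 14187401 to 43765330 counted reads. The libraries differed from each other within every group by more than counting noise, so each was kept as 1 replicate. Levels are in CPM, the reads of a gene scaled to a common library size, and differences are log2 fold changes with the standard error (SE), n = 3 libraries a group. A gene is said to have risen or fallen where edgeR's adjusted p, taken over all genes tested, was under 0.05. In SP for 12 days, replicate 3 stood apart: 30 genes of the G2 and M phases of the cell cycle summed to 812 CPM in it, against 1704 and 2016 CPM in replicates 1 and 2. Keratin and adhesion genes that mark epithelium summed to 7646 CPM or more in every library, while blood cell markers summed to at most 37.6 CPM and fibroblast and endothelial markers to at most 91.2 CPM. Both low sums were higher in SP 24 h and SP 3 days than in their controls, reaching 16.7 and 37.6 CPM for blood markers, of which 1 to 4 of the 6 had no read in a group. Most of the blood sum was CD14, the only blood marker that passed the filter on low counts. CD14 stood at 15.5 CPM in SP 24 h and 36.0 CPM in SP 3 days, against 3.33 and 17.0 CPM in their controls. Bulk counts cannot separate a change in every cell from a change in the share of cells that express a gene.

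Over 3 h to 12 days, DNMT3B was the only one of the 10 genes that rose, and it did so in all 4 comparisons with a control. The TET3 level was near 50% of the control in both long treatments, and DNMT1 and EZH1 also fell in both. EED fell at 3 days, and DNMT3A and EZH2 fell at 12 days, by less. In the main edgeR fit UHRF1, TET1 and SUZ12 passed the test in no comparison with a control, though each passed in some other fit given below. At 3 h, 1 gene rose and 0 fell by edgeR, where 7.39% of all genes tested rose and 4.11% fell. At 24 h the counts were again 1 and 0, beside 16.8% and 12% of all genes. At an unadjusted p under 0.05, 2 members were lower at 3 h and 1 at 24 h, and DESeq2 called 1 and 0 of them lower. At 3 days 1 gene rose and 4 fell, beside 25.2% and 23.3%, and at 12 days 1 rose and 5 fell, beside 26.4% and 23.4%. The median difference over the 10 genes was -0.24, -0.08, -0.28 and -0.26 (log2) in the order of the treatment times, while the median over all genes tested was 0.0034, -0.0099, -0.024 and -0.0037.

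**Figure D1:**
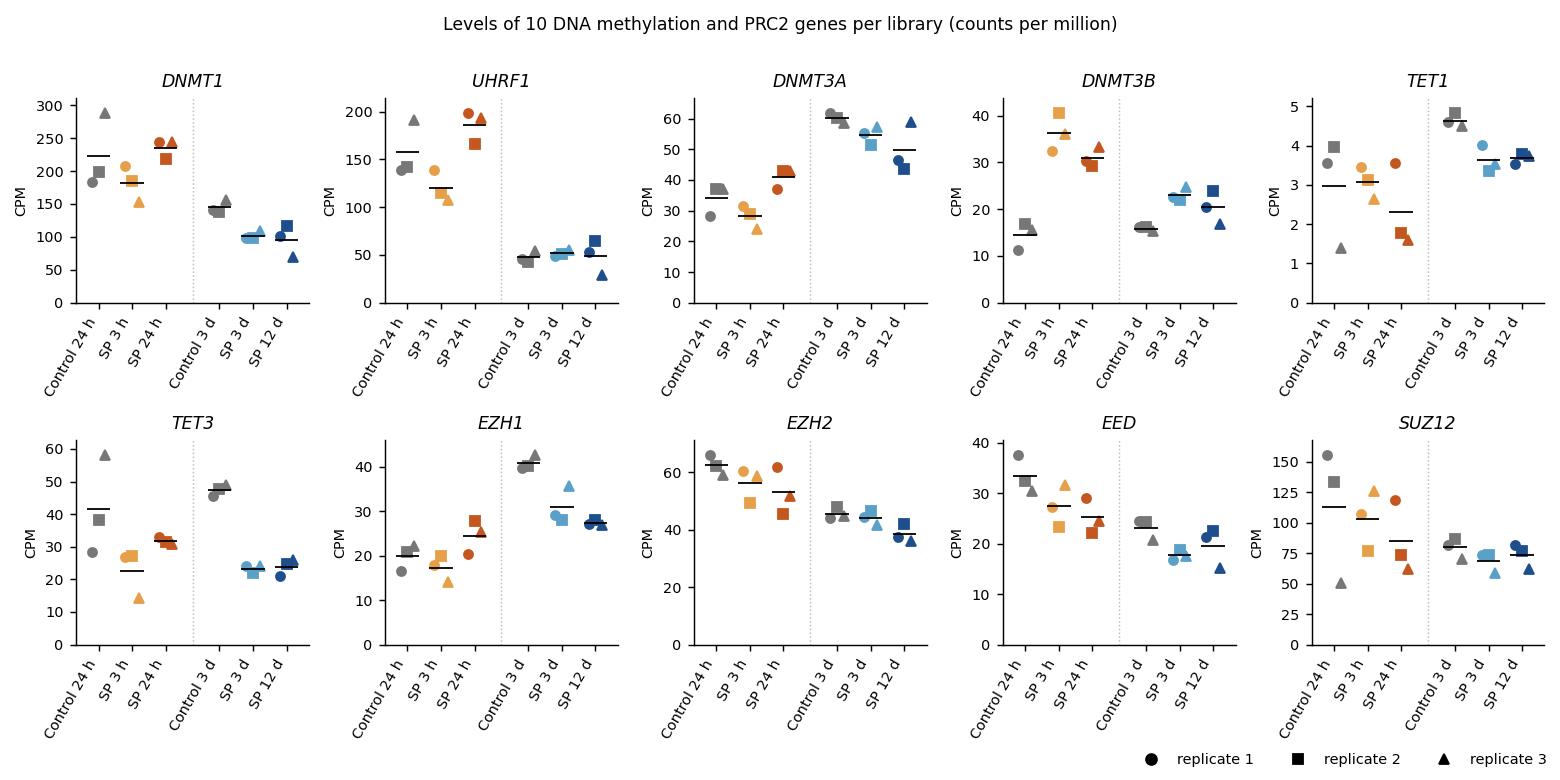
Level of each gene in CPM (y axis, from 0) in the 18 libraries, by group (x axis). Marker shapes give the replicate number, black lines the group means, and the dotted line separates the 2 count tables. DNMT3B lies above its control in every SP library, and TET3 below its control in all 6 libraries of SP for 3 and 12 days.

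A stricter rule asked that a gene differ at least 2-fold, with the adjusted p below 0.0001. By edgeR, TET3 at 3 days was the single member to pass it. Among all genes tested the share that passed it was 0% for 3 h, 0.685% for 24 h, 8.44% for 3 days and 9.11% for 12 days. TET3 at 12 days missed it by its fold change alone (log2 difference -0.98). With DESeq2, DNMT3B passed it as well at 3 h (log2 difference 1.30, adjusted p = 2.28e-10) and at 24 h (1.07, adjusted p = 1.64e-07).

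DNMT3B (ENSG00000088305, chr20:32762385-32809359, plus strand) encodes one of the enzymes that set new DNA methylation. In the 24 h control it stood at 11.2, 16.7 and 15.6 CPM in replicates 1 to 3, after 3 h of SP at 32.5, 40.5 and 36.0 CPM, and after 24 h at 30.2, 29.3 and 33.3 CPM. Every SP library lay above every control library, the lowest by 12.5 CPM at 24 h and by 15.8 CPM at 3 h. The log2 difference was 1.32 (SE 0.16, adjusted p = 0.00153) at 3 h and 1.09 (SE 0.16, adjusted p = 0.00127) at 24 h, that is 150% and 113% above the control. In the other table the control stood at 16.1, 16.2 and 15.2 CPM, SP for 3 days at 22.6, 21.9 and 24.8 CPM, and SP for 12 days at 20.5, 23.9 and 16.9 CPM. The groups again did not overlap, but replicate 3 of SP 12 days lay above the control by only 0.65 CPM. The log2 difference was 0.54 (SE 0.12, adjusted p = 0.00159) at 3 days and 0.36 (SE 0.12, adjusted p = 0.0206) at 12 days. The call at 12 days was lost when control replicate 1 or 3, or SP replicate 1 or 2, was left out (adjusted p up to 0.160), and without SP replicate 3 the difference was 0.47. The call at 3 h was lost with the replicate number as a block in a fit of its 6 libraries alone (1.32, adjusted p = 0.126), a fit in which no gene at all passed. Differences at hours and at days come from tables fitted apart and against different controls, and their sizes were not compared by a test. SP for 24 h against 3 h gave -0.23 (adjusted p = 0.325), and 12 days against 3 days -0.18 (adjusted p = 0.390).

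**Figure D2:**
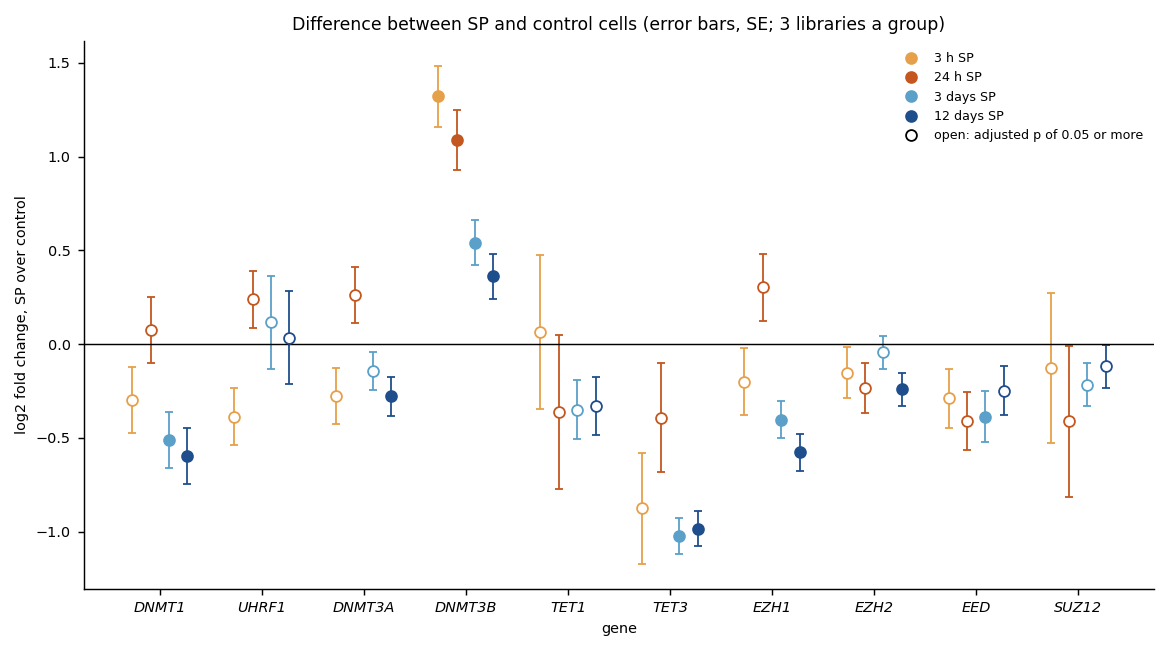
Log2 fold change of SP over control (y axis) for each gene (x axis) at the 4 treatment times. Points are edgeR estimates with their SE, 3 libraries a group, filled where the adjusted p was under 0.05. DNMT3B runs from 1.32 at 3 h to 0.36 at 12 days, and TET3 lies at -1.02 and -0.98 at 3 and 12 days.

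DNMT3B and TET3 moved the most in opposite directions, so the sequence just before their starts is shown, 5′ to 3′ on the plus strand, with each CpG in capitals. RefSeq's promoter table gives 1 start for DNMT3B, which lies inside the gene as GENCODE draws it, and other starts of the gene were not analysed here. The 200 bases before that start (chr20:32779652-32779851, from RefSeq, GRCh38.p14) hold 3 CpG. The 200 bases before the first TET3 start (chr2:73984710-73984909, from RefSeq, GRCh38.p14) hold 32. Neither stretch overlaps an annotated exon.
DNMT3B start: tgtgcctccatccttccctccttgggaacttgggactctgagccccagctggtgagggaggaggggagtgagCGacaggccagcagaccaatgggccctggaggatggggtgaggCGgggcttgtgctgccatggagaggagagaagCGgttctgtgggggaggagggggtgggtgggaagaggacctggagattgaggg
TET3 first start: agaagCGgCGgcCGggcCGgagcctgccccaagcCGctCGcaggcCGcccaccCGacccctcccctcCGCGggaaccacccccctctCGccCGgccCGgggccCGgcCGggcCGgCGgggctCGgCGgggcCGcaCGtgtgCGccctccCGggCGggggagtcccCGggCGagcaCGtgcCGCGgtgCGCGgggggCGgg
Per-gene counts do not say which start of DNMT3B was used in these cells, and no methylation was measured in the libraries analysed here.

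All 10 genes were found in the RefSeq promoter table, with 21 windows of 300 bases (250 before and 50 after a start), some of them overlapping. The median over all 35116 windows of that length was 14 CpG. The DNMT3B window held 3, the lowest of the 10 genes. DNMT1 and EZH1 held 30 each, the first EZH2 window 46 and the first TET3 window 45. Of 4 words of the type that E2F factors, drivers of DNA replication genes, bind (TTTCCCGC, TTTCGCGC, TTTGCCGC and TTTGGCGC, searched on both strands and counted where they overlap), at least 1 lay in a window of 5 genes: DNMT1, UHRF1, EZH1, EZH2 and SUZ12. That is 6 of the 21 windows (28.6%), against 3.31% of all windows, and all 4 words hold a CpG themselves.

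DNMT1 (ENSG00000130816, chr19:10133342-10231286, minus strand), the maintenance methyltransferase, stood at 140.3, 138 and 156 CPM in the 3 days control, at 98.0, 98.4 and 109 CPM after 3 days of SP, and at 101, 117 and 69.4 CPM after 12 days. All 6 SP libraries lay below all 3 controls. The log2 difference was -0.51 (SE 0.15, adjusted p = 0.0145) at 3 days and -0.60 (SE 0.15, adjusted p = 0.00587) at 12 days. The lowest value belongs to replicate 3 of SP 12 days, the library low in G2/M genes. Without that library the difference at 12 days was -0.42 (adjusted p = 7.66e-05). The call at 3 days was lost without control replicate 3 (-0.45, adjusted p = 0.0671). In the other table the levels were 184, 199 and 288 CPM in the 24 h control, 208, 185 and 153 CPM after 3 h, and 244, 219 and 244 CPM after 24 h. These groups overlapped, and neither 3 h (-0.30, SE 0.18, adjusted p = 0.344) nor 24 h (0.08, SE 0.18, adjusted p = 0.769) passed the test. DNMT1 shares 83 exon bases with S1PR2 on the same strand.

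UHRF1 (ENSG00000276043, chr19:4903080-4962154, plus strand), the partner that recruits DNMT1, took another course. It stood at 45.9, 43.1 and 53.7 CPM in the 3 days control, at 48.8, 50.8 and 55.2 CPM after 3 days of SP, and at 53.0, 64.2 and 29.2 CPM after 12 days. The groups overlapped, with a log2 difference of 0.12 (SE 0.25, adjusted p = 0.727) at 3 days and 0.03 (SE 0.25, adjusted p = 0.924) at 12 days. Replicate 3 of SP 12 days decided the second value: without it UHRF1 was above the control by 0.29 (adjusted p = 0.0122). In the short treatments UHRF1 stood at 139, 142 and 191 CPM in the control, 139, 115 and 107 CPM at 3 h, and 199, 166 and 194 CPM at 24 h. The difference was -0.39 (SE 0.15, adjusted p = 0.146) at 3 h and 0.24 (SE 0.15, adjusted p = 0.261) at 24 h. All 3 libraries of SP 24 h lay above all 3 of SP 3 h, and this difference passed the test (0.63, SE 0.15, adjusted p = 0.0199).

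**Figure D3:**
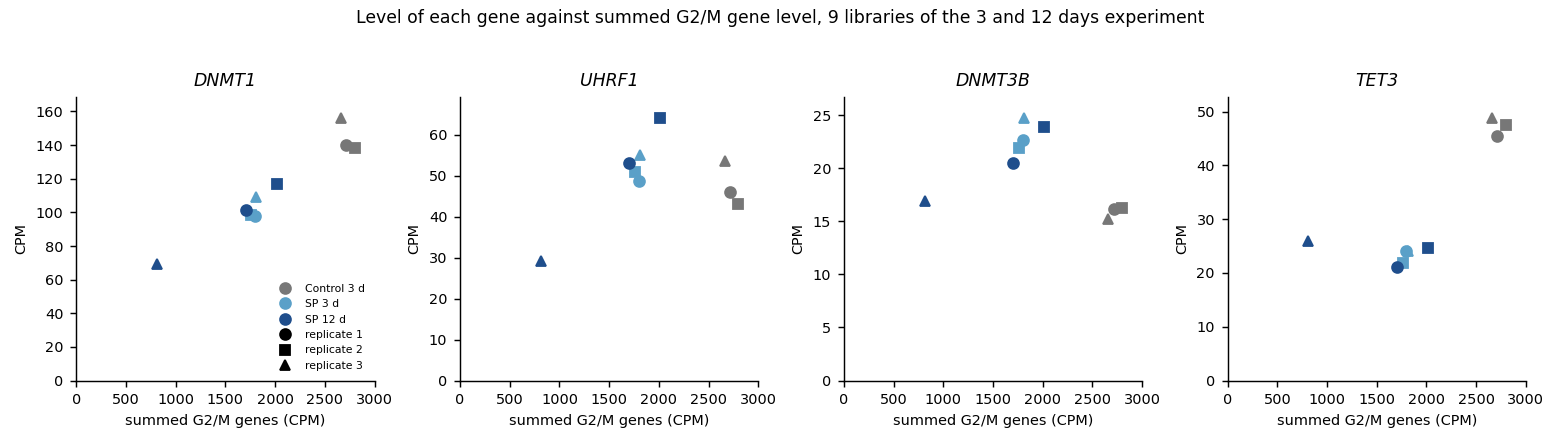
Level of DNMT1, UHRF1, DNMT3B and TET3 in CPM (y axis) against the summed level of 30 G2/M genes (x axis, CPM), in the 9 libraries of the table of long treatments. Replicate 3 of SP 12 days lies alone at 812 CPM on the x axis and has the lowest DNMT1 and UHRF1, while its TET3 level lies with those of the other SP libraries.

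The 30 G2/M genes summed to 2660 to 2800 CPM in the 3 days control, 1763 to 1811 CPM in SP 3 days and 812 to 2016 CPM in SP 12 days. Of these genes 14 fell at 3 days and 21 at 12 days, and 0 rose by edgeR (0 also at an unadjusted p under 0.05), where 23.3% and 23.4% of all genes fell. The count at 3 days was 7 without control replicate 2, 26 without replicate 3 of SP 12 days and 5 with no filter on low counts. At 12 days it was 11 without control replicate 3 and 10 with no filter. Of 30 genes of S phase, 10 fell and 1 rose at 3 days, and 15 fell and 1 rose at 12 days. The fall at 3 days covered 6 of them without control replicate 3 and 20 without replicate 3 of SP 12 days. PLK1, a kinase of mitosis, fell by 1.24 (log2, adjusted p = 0.0115) at 3 days, and TYMS, which makes thymidylate for DNA synthesis, fell by 1.28 (adjusted p = 6.12e-04). CCNE1, the cyclin of entry into S phase, rose by 1.05 (adjusted p = 7.61e-07). In the short treatments 5 G2/M genes fell at 3 h (3 without control replicate 1) and 12 at 24 h (7 without replicate 2 of SP 24 h, 22 without control replicate 3), beside 4.11% and 12% of all genes, with list medians of -0.30 and -0.60. DNMT1 and UHRF1 passed the main test at neither time, and their estimates at 24 h were 0.08 and 0.24. These depended on how counts varied with GC content and length between libraries. With that taken into account both were lower at 3 h and passed the test. The DNMT1 estimate at 24 h then lay below 0. In the long treatments DNMT1 fell and UHRF1 did not pass the test. The part of cell division in either level was not tested.

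DNMT3A (ENSG00000119772, chr2:25227855-25342590, minus strand), the other enzyme of new methylation, stood at 61.8, 60.3 and 58.7 CPM in the 3 days control, at 55.2, 51.4 and 57.1 CPM after 3 days of SP, and at 46.6, 43.4 and 58.8 CPM after 12 days. It was lower in every SP library of 3 days, but by 0.14 (log2, SE 0.10, adjusted p = 0.267) only, and it fell at 12 days (-0.28, SE 0.10, adjusted p = 0.0335). The 12 days call is fragile: the adjusted p was between 0.0509 and 0.116 when any of the 3 controls, or SP replicate 1 or 2, was left out, and 6.46e-05 (-0.44) without SP replicate 3. In the other table it stood at 28.1, 37.1 and 36.9 CPM in the control, 31.5, 28.9 and 24.0 CPM at 3 h and 36.9, 42.8 and 42.9 CPM at 24 h. The control overlapped both groups (-0.28 and 0.26, adjusted p = 0.292 and 0.210). SP 24 h lay above SP 3 h in all libraries (0.54, SE 0.15, adjusted p = 0.0319), and this call was lost with the replicate number as a block (adjusted p = 0.0534). In the comparison of 24 h with 3 h, 2 members rose and 0 fell by edgeR (0 also at an unadjusted p under 0.05 and by DESeq2), where 11.7% of all genes rose and 8.4% fell.

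TET3 (ENSG00000187605, chr2:73984910-74108176, plus strand), an enzyme that oxidises methylated cytosine, stood at 45.5, 47.6 and 48.9 CPM in the 3 days control, at 24.0, 21.8 and 24.0 CPM after 3 days of SP, and at 21.1, 24.6 and 26.0 CPM after 12 days. The highest SP library lay below the lowest control library by 19.6 CPM. TET3 fell by 1.02 (log2, SE 0.10, adjusted p = 3.96e-07) at 3 days and by 0.98 (SE 0.10, adjusted p = 4.94e-07) at 12 days. As a share of the control level, it fell by 50.7% at 3 days and fell by 49.4% at 12 days. The difference between 12 and 3 days was 0.04 (SE 0.10, adjusted p = 0.855). Leaving out any 1 library kept both calls, with differences of -1.06 to -0.93 at 12 days and -1.05 to -0.98 at 3 days. TET3 shares 390 exon bases with a long noncoding RNA gene on the same strand.

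The short treatments gave no call for TET3, though SP 3 h lay below the control in every library. The control stood at 28.3, 38.3 and 58.1 CPM, SP 3 h at 26.7, 27.2 and 14.2 CPM and SP 24 h at 32.9, 31.4 and 30.9 CPM. The wide control, and replicate 3 in both of the first groups, set a large error. The log2 difference was -0.88 (SE 0.29, adjusted p = 0.0929) at 3 h and -0.39 (SE 0.29, adjusted p = 0.335) at 24 h. DESeq2 called the first (-0.90, adjusted p = 0.0317). The libraries of this table also differed in how counts depend on a gene's GC content and length. For TET3, whose exons are 55.8% GC, that trend ran from -0.47 to 0.21 (log2) among the 9 libraries, against -0.09 to 0.15 in the table of the long treatments. With the trend taken into account TET3 was lower at 3 h by -1.01 (adjusted p = 0.00105) and at 24 h by -0.66 (adjusted p = 0.00641), and DNMT1 (-0.43, adjusted p = 0.0210), DNMT3A (-0.41, adjusted p = 0.0183) and UHRF1 (-0.47, adjusted p = 0.0142) then passed the test at 3 h too.

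TET1 (ENSG00000138336, chr10:68560337-68694487, plus strand), of the same enzyme family, was the member with the fewest reads, 182 to 249 over the 3 libraries of a control. It stood at 4.59, 4.82 and 4.49 CPM in the 3 days control, at 4.02, 3.35 and 3.53 CPM after 3 days of SP, and at 3.54, 3.79 and 3.72 CPM after 12 days. All SP libraries lay below all controls, by -0.35 (SE 0.16, adjusted p = 0.0788) and -0.33 (SE 0.15, adjusted p = 0.0907), which did not pass the test. Without replicate 3 of SP 12 days the 3 days difference passed it (adjusted p = 0.0484). At 3 h (0.07, SE 0.41) and 24 h (-0.36, SE 0.41) its control ranged from 1.40 to 3.96 CPM, and neither difference passed the test. TET2, the third enzyme of the family, fell at 3 days (-0.69, SE 0.11, adjusted p = 9.16e-05) and at 12 days (-0.66, SE 0.11, adjusted p = 1.06e-04).

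EZH1 (ENSG00000108799, chr17:42700275-42745049, minus strand) stood at 39.7, 40.2 and 42.7 CPM in the 3 days control, at 29.1, 28.0 and 35.6 CPM after 3 days of SP, and at 27.1, 28.1 and 26.9 CPM after 12 days. Controls and SP libraries did not overlap. EZH1 fell by 0.40 (log2, SE 0.10, adjusted p = 0.00299) at 3 days and by 0.58 (SE 0.10, adjusted p = 1.49e-04) at 12 days, and both calls held without any 1 library. In the other table it stood at 16.7, 20.8 and 22.2 CPM in the control, between 14.0 and 20.0 CPM at 3 h and 20.4, 27.8 and 25.4 CPM at 24 h, with overlap and without a call (-0.20 and 0.30, adjusted p = 0.562 and 0.228).

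EZH2 (ENSG00000106462, chr7:148807257-148884321, minus strand), the catalytic subunit of dividing cells, stood at 43.8, 48.0 and 44.6 CPM in the 3 days control, at 44.5, 46.3 and 41.5 CPM after 3 days of SP, and at 37.5, 41.9 and 36.1 CPM after 12 days. Nothing separated SP 3 days from its control (-0.04, SE 0.09, adjusted p = 0.711), while all libraries of SP 12 days lay below it (-0.24, SE 0.09, adjusted p = 0.0332). That call was lost without control replicate 1 or 2 or SP replicate 1 (adjusted p up to 0.0960), and with DESeq2 (adjusted p = 0.0676). At 3 h and 24 h the groups overlapped, from 45.5 to 65.9 CPM over the 9 libraries (-0.15 and -0.23, adjusted p = 0.551 and 0.214).

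EED (ENSG00000074266, chr11:86201212-86278813, plus strand), the subunit that binds the finished mark, stood at 24.4, 24.3 and 20.8 CPM in the 3 days control, at 16.8, 18.8 and 17.6 CPM after 3 days of SP, and at 21.2, 22.5 and 15.1 CPM after 12 days. It fell at 3 days (-0.39, SE 0.13, adjusted p = 0.0260), without overlap, and 12 days gave -0.25 (SE 0.13, adjusted p = 0.134). The 3 days call was lost without control replicate 1 or 2 or SP replicate 1 or 3 (adjusted p up to 0.0916), and with GC content and length taken into account (-0.26, adjusted p = 0.0799). At 24 h EED was lower in every SP library, 29.1, 22.1 and 24.5 CPM against 37.6, 32.4 and 30.5 CPM, without passing the test (-0.41, SE 0.16, adjusted p = 0.0748). With the replicate number as a block in a fit of those 6 libraries it passed (-0.43, adjusted p = 0.0221). EED shares 221 exon bases with a noncoding RNA gene on the opposite strand, and whether reads were counted by strand was not stated.

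SUZ12 (ENSG00000178691, chr17:31937007-32001038, plus strand), the scaffold of PRC2, stood at 82.0, 86.2 and 70.5 CPM in the 3 days control, at 73.4, 73.1 and 59.0 CPM after 3 days of SP, and at 81.2, 76.8 and 62.2 CPM after 12 days. The groups overlapped (-0.22 and -0.12, SE 0.12 for both, adjusted p = 0.135 and 0.417), and replicate 3 was the lowest of each group. With the replicate number as a block, 3 days gave -0.22 (adjusted p = 0.0232). Without replicate 3 of SP 12 days the 3 days difference also passed the test (adjusted p = 0.0319). At 24 h the control alone spanned 155, 133 and 50.4 CPM, and SP 24 h spanned 119, 73.3 and 62.2 CPM. SUZ12 exons are 38.2% GC, the lowest of the 10 genes, and the GC and length trend ran from -0.46 to 0.50 (log2) for it among these 9 libraries. Its differences of -0.13 at 3 h and -0.41 at 24 h carry an SE of 0.40, and the second was 0.05 with the trend taken into account.

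Between 3 and 12 days of SP none of the 10 genes passed the test, where 4.46% of all genes rose and 3.65% fell. At an unadjusted p under 0.05, 1 member was lower and 0 higher (edgeR), and DESeq2 called 0 in either direction. Without replicate 3 of SP 12 days, DNMT3A was lower at 12 than at 3 days (-0.29, adjusted p = 0.00920) and EED higher (0.29, adjusted p = 0.0412).

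Levels per kilobase of the main transcript (RPKM, from counts over all exons of the gene) set the genes beside each other. The order depends on the length used. All exons together span 10774 bases in EZH2, 6988 in EZH1 and 15379 in DNMT1, against main transcripts of 2654, 4633 and 5274 bases. In TET1 both lengths are 9612 bases. The order by all exons was not worked out. In the 3 days control the order was DNMT1 (27.5 RPKM), SUZ12 (17.7), EZH2 (17.1), UHRF1 (12.2), EED (11.1), EZH1 (8.82), DNMT3A (6.40), TET3 (3.92), DNMT3B (3.66) and TET1 (0.48). Of the neighbours in that order, SUZ12 and EZH2 overlapped between libraries, and so did UHRF1 and EED. In the 24 h control DNMT1 (42.4 RPKM) and UHRF1 (40.4) led and overlapped, and EZH1, DNMT3A, TET3 and DNMT3B, at 4.29 to 3.35 RPKM, each overlapped the next. After 3 h and 24 h of SP DNMT3B moved from the place before last to the sixth, at 8.38 and 7.14 RPKM, above EZH1, DNMT3A and TET3 without overlap with the next gene. After 3 and 12 days of SP it stood above TET3 (5.32 against 1.93 RPKM, and 4.71 against 1.98).

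Ratios of related genes within a library cancel its scaling, but not how its counts depend on GC content and length. In replicate 1 of the 24 h control that trend was -0.47 (log2) for TET3 and 0.25 for TET1. The size of a ratio depends on the transcript lengths used, while its fold difference between groups does not. The ratio of DNMT3B to DNMT3A (levels per kilobase) was 0.922 in the 24 h control, 2.82 after 3 h and 1.65 after 24 h of SP, and 0.572 in the 3 days control, 0.919 after 3 days and 0.892 after 12 days. No SP group overlapped its control, but SP 12 days was wide, its libraries running from -0.68 to 0.26 on the log2 scale. The ratio of TET3 to TET1 was 8.14 in the 3 days control, 5.12 after 3 days and 5.15 after 12 days, without overlap, while in the other table it was 11.7 in the control, 5.68 at 3 h and 11.7 at 24 h, with overlap of both. The ratio of UHRF1 to DNMT1 was 0.443 in the 3 days control, 0.686 after 3 days and 0.669 after 12 days, also without overlap. In the other table it was 0.962 in the control and 0.898 at 3 h, which overlapped, and 1.07 at 24 h, which did not. On the log2 scale the 3 libraries of SP 12 days lay between -0.81 and -0.43, against -1.24 to -1.11 in the control. The ratio of EZH2 to EZH1 was 1.94 in the 3 days control, 2.50 after 3 days, which overlapped it, and 2.45 after 12 days, which did not. In the other table it was 5.51 in the control, 5.70 at 3 h and 3.78 at 24 h, with overlap of both. With 3 libraries against 3 an exact permutation test, two-sided, cannot go below 0.1, so these ratios are given without a test.

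**Figure D4:**
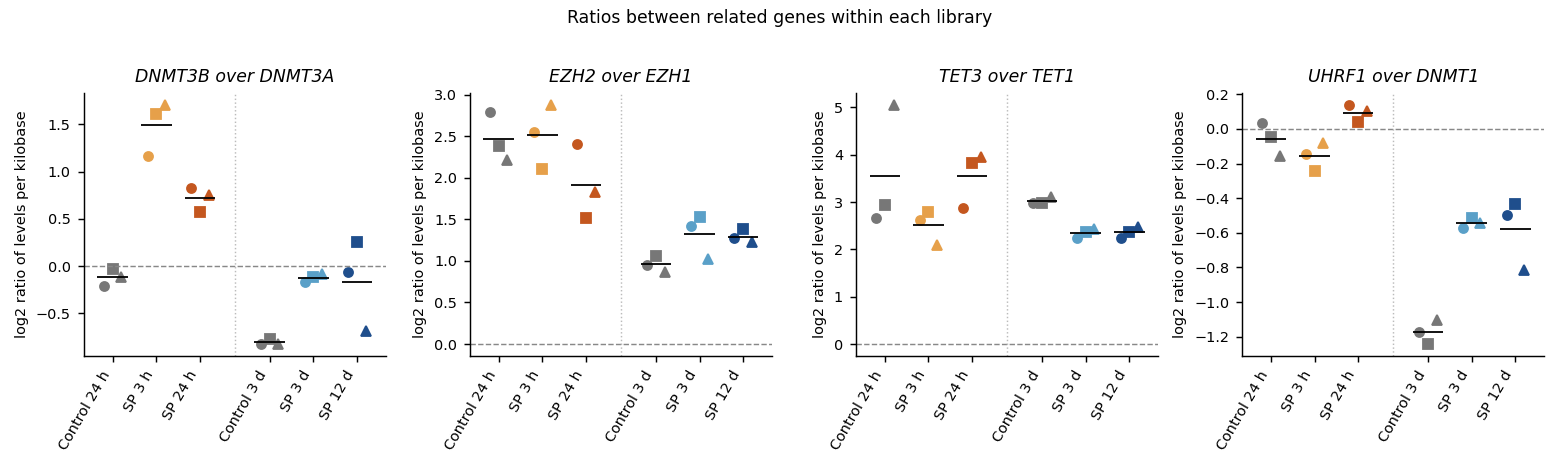
Log2 ratio of levels per kilobase between related genes (y axis) in each library, by group (x axis); marker shapes give the replicate number, black lines the means of 3 libraries, and the dashed line equal levels. DNMT3B exceeds DNMT3A in all 6 libraries of the short treatments, and the UHRF1 to DNMT1 ratio is above its control in all 6 libraries of SP for 3 and 12 days.

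Other genes of the same pathways were followed in lists. Of 9 further PRC2 genes 8 were tested. PHF19, which guides PRC2 to CpG-rich DNA, fell in all 4 comparisons: at 3 h to 77.6 ± 7.30 CPM and at 24 h to 41.6 ± 3.70 CPM from 129 ± 12.9 CPM, and at 3 and 12 days to 24.5 ± 1.84 and 24.1 ± 6.37 CPM from 70.6 ± 7.04 CPM (SD, n = 3). The log2 differences were -0.74, -1.63, -1.52 and -1.56 (adjusted p = 0.00471, 4.93e-05, 7.70e-06 and 5.52e-06), and PHF19 passed the stricter rule in the last 3. It was the single member of that list to fall in each of them. JARID2, a cofactor that helps to recruit PRC2, rose at 3 h (0.55, adjusted p = 0.0367), a call lost in 7 of the 9 fits that left out 1 library (adjusted p up to 0.139). EPOP, a partner of another form of PRC2, rose at 3 and 12 days (0.78 and 0.71, adjusted p = 6.13e-06 and 1.46e-05), as did MTF2, a relative of PHF19 (0.32 and 0.26, adjusted p = 0.0165 and 0.0419), whose calls were lost in 3 and 8 of the 9 such fits. The medians of the 8 genes, from the shortest treatment to the longest, were 0.11, -0.06, 0.09 and -0.03.

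All 24 genes of PRC1, the complex that binds the mark made by PRC2, were tested. At 3 h 4 rose and 1 fell, beside 7.39% and 4.11% of all genes, and at 24 h 4 and 3, beside 16.8% and 12%. At 3 days the counts were 4 and 7, beside 25.2% and 23.3%, and at 12 days 4 and 11, beside 26.4% and 23.4%. The list medians were -0.08, -0.05, -0.11 and -0.18. The higher count at 3 h was 2 without replicate 2 of SP 3 h, and at 24 h it was 2 without control replicate 1 and 7 without control replicate 3. The lower count at 24 h was 0 without replicate 2 of SP 24 h and 6 without control replicate 3. The higher count at 12 days was 1 to 3 with any 1 library left out, and 1 without replicate 1 or 2 of SP 3 days or of SP 12 days. CBX7, which reads methylated histone H3, rose at 3 h (1.41, adjusted p = 0.0126, and 0.0540 without SP replicate 2). It also rose at 24 h (0.93, adjusted p = 0.0353), a call lost in 5 of the 9 fits without 1 library. Its rise at 3 days (0.60, adjusted p = 8.18e-04) was kept in all 9 of them. BCORL1, a corepressor of one form of PRC1, rose at 24 h, 3 days and 12 days (1.78, 0.85 and 0.89, adjusted p = 0.0421, 7.47e-06 and 4.14e-06), the first call being lost in 7 of the 9 fits without 1 library. L3MBTL2 and PCGF5 fell at 3 days (-0.66 and -0.54), and PHC1 and L3MBTL2 at 12 days (-0.58 and -0.49). Of 6 tested genes that oppose lysine 27 methylation or Polycomb silencing, 3 fell and 1 rose at 3 and at 12 days. ASXL1, part of the complex that removes the PRC1 mark, fell at both (-0.34 and -0.47), and KDM6B, a demethylase of lysine 27, rose at both (0.22 and 0.25), with calls lost in 6 and 2 of the 9 fits without 1 library. The KDM6B calls were also lost in 4 and 5 of 12 alternative settings. With GC content and length taken into account its 3 days difference was 0.014 (adjusted p = 0.886).

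**Figure D5:**
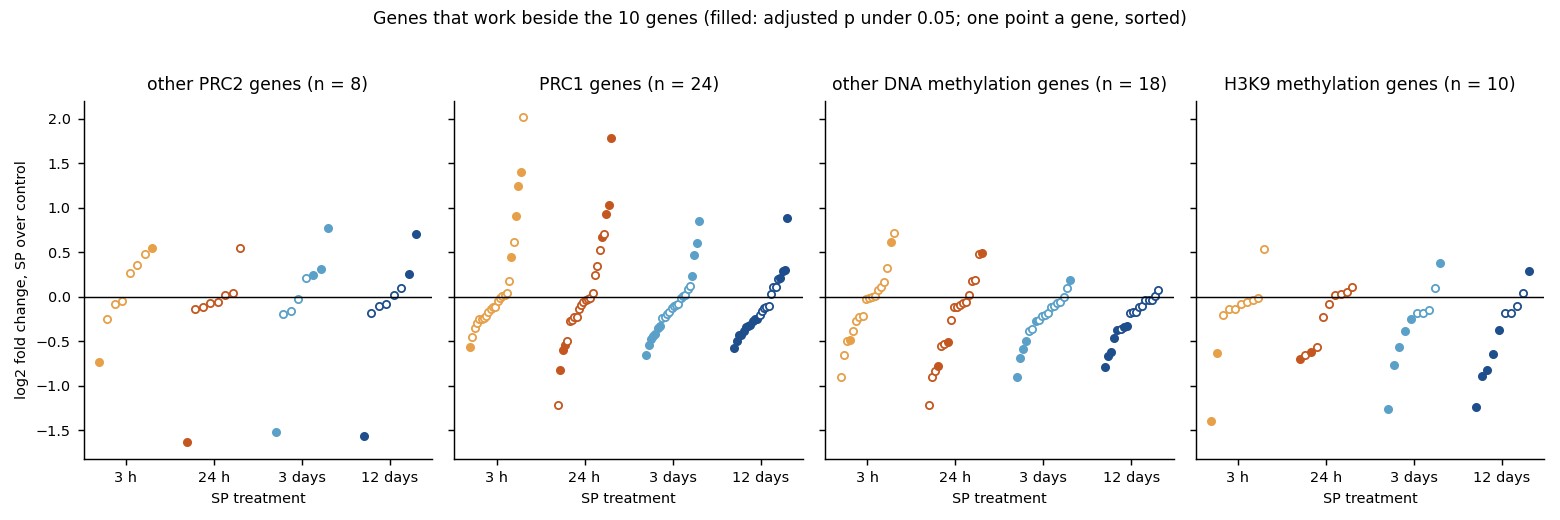
Log2 fold change of SP over control (y axis) by time (x axis) for the tested genes of 4 lists: other PRC2 genes, PRC1 genes, other DNA methylation genes and genes of histone H3 lysine 9 methylation. Each point is a gene, sorted within its group and filled where the adjusted p was under 0.05. The lowest point of the PRC2 panel at each time is PHF19, at -0.74, -1.63, -1.52 and -1.56.

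Of 20 further genes of DNA methylation and its readers 18 were tested. At 3 h 1 rose and 1 fell, at 24 h 1 and 2, at 3 days 1 and 5, and at 12 days 0 (0 also at an unadjusted p under 0.05 in edgeR) and 7. Over all genes 7.39% rose and 4.11% fell at 3 h, 16.8% and 12% at 24 h, 25.2% and 23.3% at 3 days, and 26.4% and 23.4% at 12 days. The lower count was 6 at 24 h without control replicate 3, and 11 at 3 days without replicate 3 of SP 12 days. The counts came with list medians of -0.02, -0.11, -0.21 and -0.18. MBD3, a subunit of the NuRD corepressor, fell in all 4 comparisons (-0.49, -0.78, -0.90 and -0.79), but its call at 3 h was lost in 7 of the 9 fits without 1 library (adjusted p up to 0.107) and in the fit of only the 2 groups compared. CXXC5, which binds unmethylated CpG, rose at 3 h, 24 h and 3 days (0.62, 0.50 and 0.19), calls lost in 3, 5 and 7 of those 9 fits. With GC content and length taken into account its 24 h difference was 0.20 (adjusted p = 0.315). At 12 days CXXC5 fell below the control (-0.46, adjusted p = 9.17e-05), a call kept in all 9 fits. It was then also lower than at 3 days (-0.65, adjusted p = 8.86e-05). Of 10 genes of lysine 9 methylation of histone H3 and its readers, 2 fell at 3 h and at 24 h, and 5 fell and 1 rose at 3 and at 12 days, beside the same shares of all genes. The lower count at 24 h was 0 without replicate 2 of SP 24 h and 4 without control replicate 3. SUV39H1, a methyltransferase of silent heterochromatin, fell in all 4 (-1.39, -0.70, -1.26 and -1.24), with the call at 24 h lost without SP replicate 2 or 3 (adjusted p up to 0.0549). CBX1, one of the proteins that bind this mark, rose at 3 and 12 days (0.38 and 0.29), the second call being lost without SP replicate 1 or 2 (adjusted p up to 0.0720). CBX5, another of them, fell at both (-0.39 and -0.64, adjusted p = 0.00143 and 1.34e-05), and CBX3 was called at neither.

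Genes commonly held silent by these systems moved both ways. Of 32 developmental transcription factors known as Polycomb targets, 18 were tested. Of them 2 rose and 2 fell at 3 h, 5 and 2 at 24 h, 6 and 3 at 3 days, and 9 and 4 at 12 days. The shares of all genes that rose and fell at these times were 7.39% and 4.11%, 16.8% and 12%, 25.2% and 23.3%, and 26.4% and 23.4%. The higher count at 3 h was 1 without replicate 2 of SP 3 h and 4 without control replicate 3, and the count of 5 at 24 h was 1 without replicate 2 of SP 24 h. The list medians were 0.21, 0.20, 0.31 and 0.38. The filter on low counts can keep a gene through its SP libraries alone. A gene near silent in the control can then only be called higher. These counts and medians can lean towards rises for that reason. NKX6-1 rose in all 4 comparisons (1.74, 1.09, 1.94 and 1.81), from 1.81 ± 0.763 to 6.15 ± 0.452 CPM at 3 h and from 1.05 ± 0.0867 to 4.02 ± 0.521 CPM at 3 days (SD, n = 3). Its call at 24 h was lost without control replicate 2 or SP replicate 2 or 3 (adjusted p up to 0.0803). LHX8 fell in all 4 (-2.46, -1.87, -1.43 and -1.89). Of 27 genes of germ cells, where DNA methylation is a common means of silencing, 6 or 7 were tested. TEX19, a germ cell gene of this kind, rose at 3 days to 3.65 ± 0.540 CPM from 0.330 ± 0.0460 CPM (log2 difference 3.42, adjusted p = 0.00176) and at 12 days to 1.56 ± 1.57 CPM (2.27, adjusted p = 0.0240). It had also risen at 24 h (2.32, adjusted p = 0.00294), a call kept in all 9 fits without 1 library. With a minimum count of 50 it was not tested at 24 h. At 0.330 CPM the 3 days control lay under the limit of the filter on low counts. TEX19 was thus tested in the long treatments only through SP libraries, and any call against the control could only be a rise. The 12 days call was lost without any 1 of the 3 controls or SP replicate 3 (adjusted p up to 0.0764), and TEX19 did not pass the filter in the fit of only the 2 groups compared. STK31, HORMAD1 and MAGEA6 fell at 3 days, STK31 not so without control replicate 1 (adjusted p = 0.0984). No mark was measured at any of these genes here.

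The genes whose 4 differences lay closest to those of a member were found among 11279 genes that averaged 100 or more reads per library in both tables, by the root mean square (RMS) of the difference. For DNMT3B they were HID1 (RMS 0.0947), RARA (0.120) and CBX7 (0.125). For TET3 they were TADA2A, DCAF1 and MZF1-AS1 (0.0575 to 0.0603). DNMT1 was nearest to PPIL2, PPM1F-AS1 and PCSK6 (0.0548 to 0.0566), and EZH1 to PTGR2, RPH3AL and PRRC2B (0.0537 to 0.0619). With 4 points that share controls in pairs, likeness of this kind is a description of the profiles.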

How the data were processed

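RNA was sequenced from A549 cells as paired-end reads (NEBNext Ultra libraries, NovaSeq). The paper calls the libraries of the 3 h and 24 h experiment biological replicates and gives only their number per group for 3 and 12 days, where p-values measure the spread between these libraries, which may be technical. Per the study's methods and the labels, the authors aligned reads to GRCh38 with STAR 2.7.9a and counted them per Ensembl gene with featureCounts. The deposited values are raw whole-number counts of the reads of each library, 9 libraries in each of 2 tables, of 61541 genes each; strandedness and the treatment of multimapping reads are not given in the sources used here. Symbols were matched for 61369 identifiers. Library totals ran from 14187401 to 43765330 reads, and TMM factors from 0.957 to 1.04.

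Each table was tested apart with edgeR 4.0.16 (R 4.3.3): filterByExpr with a minimum count of 10, TMM factors, robust quasi-likelihood fits of all 9 libraries, and Benjamini-Hochberg adjustment over all genes tested (called under 0.05). The stricter rule (0.0001, and a fold change of at least 2) follows the study's methods, which used DESeq2 1.36.0. CPM used TMM-scaled totals. The scripts were tested on simulated data. Alternatives were DESeq2 1.42.0, other factors, filters, blocks, GC and length offsets, and leaving out each library; those that joined the block to a fit of 2 groups were chosen after seeing the data. The members and lists were chosen with earlier results of these data known.

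All 10 members are named. Of each other list and comparison, up to 2 genes with the largest rise and 2 with the largest fall were eligible, among those called with a mean of at least 1 CPM. Some genes that the rule makes eligible are not reported here. MAGEA6 at 3 days, CXXC5 at 12 days against control, TEX19 and CBX7 at 24 h and CBX5 are named outside this rule, after their values were seen. The 3 genes nearest to a member by their 4 differences are named for each member called in at least 2 comparisons.

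The replicate numbers come from the labels. Deviations of libraries with the same number correlated at 0.249 to 0.745 between the 24 h control and SP 24 h. These were therefore read as possibly paired. Libraries of different numbers in those groups gave -0.775 to 0.392. The main 24 h test did not use the pairing, and the replicate block was an alternative. With the block in a fit of only the 2 groups compared, edgeR called 3441 genes higher and 3108 lower, against 2922 and 2087. Same-numbered libraries correlated at -0.817 to -0.153 between the 24 h control and SP 3 h, and libraries of different numbers at -0.859 to 0.86. Correlations as high as those read as pairing thus also occurred between libraries of different numbers. Between the 3 days control and SP 3 days same-numbered libraries correlated at 0.024 to 0.456. Between that control and SP 12 days the range was -0.017 to 0.073. Whether libraries with the same number share a culture or day is not given in the sources used here. The offsets were loess trends, per library, of log counts on GC content and exon length. DNMT3A, TET1, EZH2, EED and SUZ12 each have an annotated pseudogene, which could take or give reads.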

Additional observations from a re-analysis of the deposited data

Results flagged for a closer look

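The direct test of SP 24 h against SP 3 h found a difference for 2 of the 10 genes. Of all genes tested, 11.7% were higher and 8.4% lower in that test. With no untreated library at 3 h, SP and time in culture cannot be told apart in it. DNMT3A was higher at 24 h than at 3 h by 0.54 on the log2 scale (SE 0.15, adjusted p = 0.0319 in edgeR), at 36.9 to 42.9 CPM against 24.0 to 31.5 CPM in 3 of 3 libraries. UHRF1 was higher by 0.63 (SE 0.15, adjusted p = 0.0199), at 166 to 199 CPM against 107 to 139 CPM in 3 of 3 libraries. The call for DNMT3A was lost without SP 3 h replicate 2 or 3 or SP 24 h replicate 2 or 3 (adjusted p up to 0.112), and that for UHRF1 without SP 3 h replicate 2 or 3 or SP 24 h replicate 1 or 3 (adjusted p up to 0.0750). The groups hold 3 libraries each, too few for the check on single libraries that stand apart.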

How the results depend on the processing

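Direction and side of the threshold held in all alternatives for TET3 and EZH1 at 3 and 12 days, DNMT1 at 12 days and DNMT3B at 24 h and 3 days, libraries left out included; DNMT3B at 3 h was lost in 1 alternative (0 members called, with the replicate block in a fit of the 2 groups compared, where 0 of 16151 genes passed). The counts of members called moved as follows, and the cause was not tested. At 3 h DESeq2 called 2 members, GC content and length offsets 5 (with the replicate block 5, and with the block in the 2 groups compared 2). At 24 h the offsets called 2 (with the block 2, and in the 2 groups compared 3), and the block in the 2 groups compared 2. For 24 h against 3 h the replicate block called 1, and the offsets with the block in the 2 groups compared 5. The block of replicate numbers in the fit of 9 libraries changed the call of 1 further member, SUZ12 at 3 days (-0.22, adjusted p = 0.0232). Leaving out 1 library called 1 to 3 members at 24 h (3 without control replicate 3, where UHRF1 gave 0.40, adjusted p = 0.0433), 0 to 2 for 24 h against 3 h, 3 to 7 at 12 days (3 without control replicate 1 or SP 12 days replicate 1, 7 without SP 12 days replicate 3) and 0 to 2 for 12 days against 3 days (2 without SP 12 days replicate 3). At 3 days TET1 (adjusted p = 0.0484) and SUZ12 (adjusted p = 0.0319) passed the edgeR test without SP 12 days replicate 3. That fit called 5171 genes higher and 5242 lower at 3 days, where the main fit called 4487 and 4147. At 12 days the same fit called 4934 higher and 4990 lower, where the main fit called 4692 and 4166. Over all genes, DESeq2 called 1463 higher and 1060 lower at 3 h. At 24 h the offsets called 3393 and 2551 of all genes, and the fit without control replicate 3 called 3525 and 3093. The counts of all genes thus moved in these fits too. Small differences changed sign. With offsets, offsets with block, and both in the 2 groups compared, these were at 24 h DNMT1 (-0.22, -0.22, -0.22), DNMT3A (-0.015, -0.013, -0.0100) and SUZ12 (0.049, 0.057, 0.060); for 24 h against 3 h EZH2 (0.11, 0.10, 0.10), EED (0.22, 0.21, 0.21) and SUZ12 (0.073, 0.057, 0.062); at 3 days EZH2 (0.026, 0.025, 0.029); and for 12 days against 3 days TET1 (-0.041, -0.040, -0.043), SUZ12 (-0.044, -0.045, -0.046) and, with offsets, DNMT1 (0.0052). SUZ12 at 3 h gave 0.014 with offsets and block in the 2 groups compared, UHRF1 at 12 days -0.022, -0.035 and -0.041 with the block and offsets, the block in 2 groups, and both, and EZH2 at 24 h against 3 h 0.017 with upper quartile factors. With 1 library left out, values of these ranges came up: DNMT1 at 24 h -0.078 to 0.29, SUZ12 at 3 h -0.48 to 0.16, TET1 at 3 h -0.30 to 0.34, UHRF1 at 12 days -0.24 to 0.29, EZH2 for 24 h against 3 h -0.21 to 0.018, and for 12 days against 3 days DNMT1 -0.27 to 0.090, SUZ12 -0.013 to 0.19, TET1 -0.044 to 0.086, TET3 -0.037 to 0.10 and UHRF1 -0.35 to 0.17. Over all genes, 3 h had 1285 higher and 714 lower, but 624 and 349 in the 2 groups compared, 1805 and 1332 with offsets, and 2017 and 1553 with offsets and block; 12 days against 3 days had 792 and 648, but 531 and 402 in the 2 groups compared, 462 and 358 there with the block, 324 and 257 there with both, and 2456 and 2617 without SP 12 days replicate 3; and with offsets and block in the 2 groups compared 24 h had 4260 and 3474, and 24 h against 3 h 3412 and 2723. Upper quartile factors moved the split of all genes at 24 h from 2922 higher and 2087 lower to 3208 and 1480, and for 24 h against 3 h from 2038 and 1459 to 2474 and 853. Depth limits TET1 most, with 182 reads over 3 libraries of the 24 h control.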
